A study of Mus musculus with 8 samples.

Results

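The genes described here are 10 that mark developing neutrophils: the azurophil granule enzyme genes Mpo, Elane, Prtn3 and Ctsg, the progenitor gene Ms4a3, the specific granule genes Lcn2, Ltf and Ngp, and the transcription factor genes Cebpa and Cebpe. They were taken by symbol from an expression array with 12393 named genes, and 9 of the 10 had a probe set annotated to that symbol alone. Cebpe had no such probe set and was not analysed here. Each of the 9 was read by a single probe set, so no choice between probe sets was needed, and no filter on low values was used.

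Expression was compared between 3 kinds of sorted mouse bone marrow cells, all labelled C57/BL6 and 12 weeks old. Ezh2 KO leukaemia-initiating cells (Ezh2 KO CML LICs, 2 arrays) are labelled as knocked out for Ezh2, a methyltransferase of Polycomb repressive complex 2, and came from a retroviral mouse model of chronic myeloid leukaemia. WT CML LICs (3 arrays) came from the same model with Ezh2 intact. Both kinds were sorted as GFP-positive, lineage-negative, Sca1-positive and Kit-positive cells 14 days after bone marrow transplantation. The normal cells (WT HSC, 3 arrays) were LSK cells, sorted with the same surface markers but without GFP, and the labels name no transplant for them, so transplantation, infection and leukaemia cannot be told apart in comparisons with LSK cells. All cells were sorted again after the first sort. The labels do not state the oncogene of the retrovirus, how Ezh2 was deleted, whether animals were pooled or their sex. The labels call the repeats biological, and nothing further says that they came from separate animals, so p-values measure the spread between these samples.

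Neutrophils are built in stages that can be read from their granules. At the promyelocyte stage the cell makes azurophil granules with myeloperoxidase and the serine proteases neutrophil elastase, proteinase 3 and cathepsin G. Later, at the myelocyte and metamyelocyte stages, it makes specific granules with lactoferrin, lipocalin 2 and the cathelicidin family. C/EBP-alpha is needed for entry into the granulocyte-monocyte lineage and C/EBP-epsilon for the specific granule stage. Early progenitors already carry azurophil granule transcripts, while specific granule transcripts are typical of cells further along than those in an LSK sort.

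The DNA just before the start of 4 of these genes is shown, because Ms4a3 and Lcn2 had the largest differences between WT CML LICs and LSK cells among genes whose arrays did not overlap, while the neighbouring protease genes Elane and Prtn3 differed little there. Each stretch is the 250 bases before the RefSeq gene start in GRCm38.p6, read 5′ to 3′ on the gene's strand, with matches to 4 motifs in capitals. The motifs, searched on both strands, were TTNNGNAA (C/EBP-type), GAGGAA (ETS-type, as bound by PU.1), TGTGGT (RUNX-type) and TAACNG (MYB-type). Ms4a3 lies at chr19:11640852-11641101 on the minus strand, Lcn2 at chr2:32387740-32387989 on the minus strand, Elane at chr10:79886062-79886311 on the plus strand and Prtn3 at chr10:79879417-79879666 on the plus strand.
Ms4a3: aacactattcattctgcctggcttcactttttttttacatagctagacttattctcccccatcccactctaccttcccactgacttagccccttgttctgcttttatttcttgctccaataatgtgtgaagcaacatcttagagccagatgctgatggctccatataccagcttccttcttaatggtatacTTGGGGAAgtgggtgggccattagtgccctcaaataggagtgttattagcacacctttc
Lcn2: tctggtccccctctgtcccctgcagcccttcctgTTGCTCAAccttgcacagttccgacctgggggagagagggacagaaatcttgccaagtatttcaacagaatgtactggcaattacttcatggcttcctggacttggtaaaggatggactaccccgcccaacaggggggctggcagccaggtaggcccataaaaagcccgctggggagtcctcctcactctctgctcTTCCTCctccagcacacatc
Elane: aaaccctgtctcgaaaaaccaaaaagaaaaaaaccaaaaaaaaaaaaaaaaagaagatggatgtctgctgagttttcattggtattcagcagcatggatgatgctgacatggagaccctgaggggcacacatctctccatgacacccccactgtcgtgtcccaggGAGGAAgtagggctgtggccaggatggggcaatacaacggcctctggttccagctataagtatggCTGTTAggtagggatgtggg
Prtn3: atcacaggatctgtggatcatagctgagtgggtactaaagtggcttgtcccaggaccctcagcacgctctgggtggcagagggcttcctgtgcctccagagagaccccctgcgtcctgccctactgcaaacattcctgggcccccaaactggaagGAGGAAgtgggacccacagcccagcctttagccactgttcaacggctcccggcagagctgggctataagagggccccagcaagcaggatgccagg
Ms4a3 held 1 C/EBP-type match, 59 to 52 bases before the start. Lcn2 held a C/EBP-type match 216 to 209 bases before the start and an ETS-type match at 20 to 15 bases. Elane and Prtn3 each held the ETS-type letters in the same orientation, at 85 to 80 and at 95 to 90 bases before the start, and Elane also held a MYB-type match at 20 to 15 bases. No 2 matches overlapped. Ctsg, whose WT CML LIC and LSK arrays also did not overlap, is not printed and held no C/EBP-type match. It held an ETS-type match 216 to 211 bases before the start and a RUNX-type match at 79 to 74 bases. Over the 9 measured genes the C/EBP-type letters were present in 4, the ETS-type in 6, the MYB-type in 2 and the RUNX-type in 1. Over all 32851 RefSeq windows of this length the shares were 36.8%, 23.3%, 19.8% and 14%. A match describes the letters in the window and is not evidence of a bound site.

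Values are log2 of the deposited intensity, and differences between groups were read within a probe set across arrays. The background level, the marker sums and some levels named side by side set different probe sets beside each other, with no adjustment between probe sets. A level of 4.01, the highest mean among 27 bacterial control probe sets with no added target, was taken as background. Array medians lay between 6.42 and 6.57. Ezh2 was at 8.94 and 9.55 on the Ezh2 KO arrays, against 11.26 to 11.44 in WT CML LICs and 10.77 to 11.07 in LSK cells, and where its probes lie relative to the deleted part is not given. Kit, the receptor used in the gate, was read at 9.99 and 10.35, at 9.69 to 9.81 and at 10.90 to 11.05 in the same order of groups, and Ly6a, which encodes Sca1, was not measured by a probe set annotated to it alone. Differences were tested with limma over all 12393 genes with Benjamini-Hochberg adjustment, and a gene was called at an adjusted p under 0.05. All adjusted p-values below come from that test. In sorted bulk samples, fewer cells of a type and less RNA per cell cannot be told apart.

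**Figure D1:**
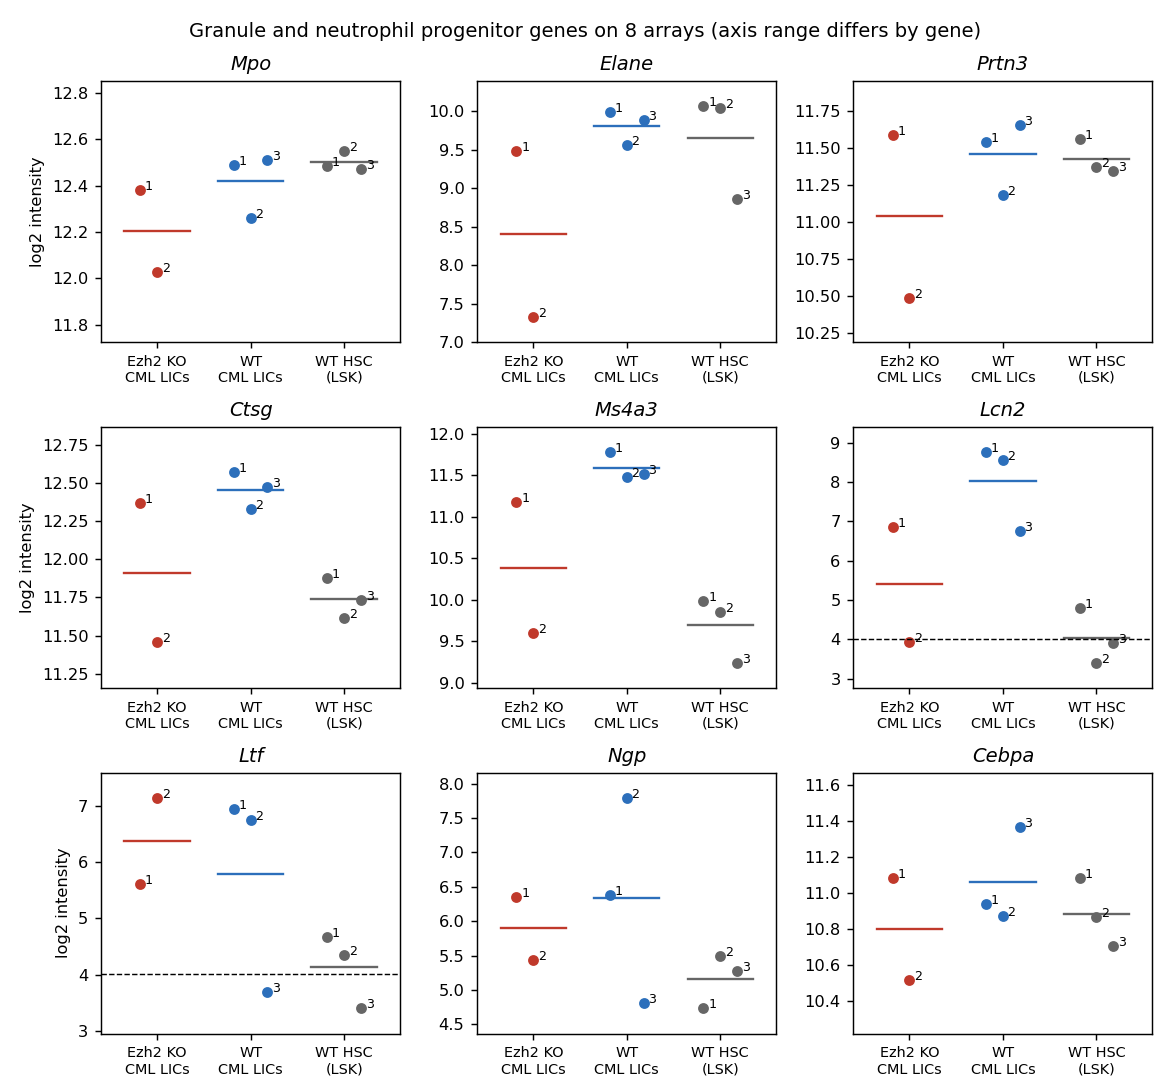
Log2 intensity (vertical axis, with its own range in each panel) of 9 granule and neutrophil progenitor genes on 2 Ezh2 KO CML LIC, 3 WT CML LIC and 3 LSK arrays; each point is an array with its replicate number, the bar is the group mean and the dashed line the background level of 4.01. Ms4a3, Ctsg and Lcn2 were higher on every WT CML LIC array than on any LSK array, and replicate 2 of the Ezh2 KO CML LICs had the lowest value of the 8 arrays for Mpo, Elane, Prtn3, Ctsg and Cebpa.

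The azurophil granule enzymes were present in all 3 kinds of cells, and none of the 4 was called in any comparison. Mpo (probe set 1415960_at), the haem enzyme that makes hypochlorous acid, was at 12.38 and 12.03 in Ezh2 KO CML LICs, at 12.49, 12.26 and 12.51 in WT CML LICs and at 12.48, 12.55 and 12.47 in LSK cells. The whole span over 8 arrays was 0.52, the smallest among these genes. The WT CML LICs and LSK cells overlapped, with a difference of -0.08 and a 95% interval from -0.43 to 0.27 (adjusted p = 0.812), which turned to 0.05 when each array was centred on its median. Both Ezh2 KO values lay under all 3 LSK values, with a difference of -0.30 (SE 0.17, adjusted p = 0.386).

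Prtn3 (1419669_at), which encodes proteinase 3, was at 11.59 and 10.49 in Ezh2 KO CML LICs, at 11.54, 11.18 and 11.65 in WT CML LICs and at 11.56, 11.37 and 11.35 in LSK cells. Replicate 2 of the knockout was low, and the other 7 arrays lay within 11.18 to 11.65. The difference between WT CML LICs and LSK cells was 0.03, with an interval from -0.63 to 0.69 (adjusted p = 0.967). It changed sign under quantile normalization, cyclic loess and array weights.

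Elane (1422928_at), the elastase gene next to Prtn3, was at 9.48 and 7.33 in Ezh2 KO CML LICs, at 9.99, 9.56 and 9.88 in WT CML LICs and at 10.06, 10.04 and 8.86 in LSK cells. Both knockout values lay under the 3 WT CML LIC values, but 1 of them by less than 0.1 on the log2 scale and the other by more than 2. The difference between Ezh2 KO and WT CML LICs was -1.41 (SE 0.63, adjusted p = 0.463). It was -0.33 without replicate 2 of the knockout and -2.48 without replicate 1.

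Ctsg (1419594_at), which encodes cathepsin G, was the one azurophil enzyme whose WT CML LIC arrays all lay above the LSK arrays. It was at 12.37 and 11.46 in Ezh2 KO CML LICs, at 12.57, 12.33 and 12.47 in WT CML LICs and at 11.88, 11.61 and 11.73 in LSK cells. The difference between WT CML LICs and LSK cells was 0.72 (SE 0.24, interval 0.16 to 1.27), a 1.64-fold difference that did not pass (adjusted p = 0.147). Between the knockout and WT CML LICs the difference was -0.55 (SE 0.26, adjusted p = 0.493), and replicate 1 of the knockout lay among the WT CML LIC values.

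Ms4a3 (1420572_at), a membrane protein gene of the granulocyte-monocyte progenitor whose product restrains cell-cycle entry, rose in WT CML LICs. It was at 11.17 and 9.60 in Ezh2 KO CML LICs, at 11.78, 11.48 and 11.51 in WT CML LICs and at 9.98, 9.86 and 9.24 in LSK cells. The WT CML LIC mean was 11.59 ± 0.16 against 9.69 ± 0.39 in LSK cells (SD, n = 3 each), a rise of 1.90 (SE 0.40, adjusted p = 0.0494). The call was close to the threshold and was lost under 9 of 17 alternatives, each of the 6 arrays left out among them (adjusted p = 0.0185 to 0.144 over the alternatives, difference 1.67 to 2.04). Ezh2 KO CML LICs lay under all 3 WT CML LIC values, by 1.20 on average (difference -1.20, SE 0.44, adjusted p = 0.38). Replicate 2 of the knockout was within the range of the LSK cells and replicate 1 was not.

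Lcn2 (1427747_a_at), which encodes the iron-siderophore binding protein lipocalin 2 of specific granules, had the largest difference of the set. It was at 6.87 and 3.93 in Ezh2 KO CML LICs, at 8.76, 8.56 and 6.76 in WT CML LICs and at 4.81, 3.41 and 3.90 in LSK cells. Only 1 of 3 LSK arrays and 1 of 2 knockout arrays were above background. The WT CML LIC mean was 8.03 ± 1.10 against 4.04 ± 0.71 in LSK cells (SD, n = 3 each), and the difference of 3.99 (SE 0.84) just missed the threshold (adjusted p = 0.0507). It passed under 10 of 17 alternatives (adjusted p = 0.02 to 0.15, difference 3.62 to 4.62). The difference between Ezh2 KO and WT CML LICs was -2.63 (SE 0.94, adjusted p = 0.371), and it was -1.16 without replicate 2 of the knockout. Replicate 2 itself was under background.

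Ltf (1450009_at), the lactoferrin gene, was at 5.61 and 7.13 in Ezh2 KO CML LICs, at 6.94, 6.74 and 3.70 in WT CML LICs and at 4.68, 4.35 and 3.40 in LSK cells. The third WT CML LIC array was under background and among the LSK values, while the other 2 were over 2 log2 units above every LSK array. The difference between WT CML LICs and LSK cells was 1.65 (SE 0.89, adjusted p = 0.349). Without that array it was 2.70 (adjusted p = 0.0384), and without replicate 1 of the WT CML LICs it was 1.07. It passed under 1 of 16 alternatives, with adjusted p from 0.0384 to 0.625. The knockout arrays lay above all LSK arrays, with a difference of 2.23 (SE 0.99, adjusted p = 0.279), and overlapped the WT CML LICs (difference 0.58, SE 0.99, adjusted p = 0.862).

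Ngp (1418722_at), the neutrophilic granule protein gene of the cathelin family, was at 6.35 and 5.44 in Ezh2 KO CML LICs, at 6.38, 7.79 and 4.82 in WT CML LICs and at 4.73, 5.49 and 5.28 in LSK cells. As for Ltf, WT CML LIC replicate 3 lay within the LSK range and replicates 1 and 2 lay above it. The difference between WT CML LICs and LSK cells was 1.16 (SE 0.69, adjusted p = 0.391), or 1.92 without replicate 3 and 0.43 without replicate 2. Between the knockout and WT CML LICs it was -0.44 (SE 0.77, adjusted p = 0.866).

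Cebpa (1418982_at) was at 11.08 and 10.52 in Ezh2 KO CML LICs, at 10.94, 10.87 and 11.37 in WT CML LICs and at 11.08, 10.86 and 10.70 in LSK cells. The 3 groups overlapped. The difference was -0.26 between the knockout and WT CML LICs (interval -0.82 to 0.31, adjusted p = 0.727) and 0.17 between WT CML LICs and LSK cells (interval -0.33 to 0.68, adjusted p = 0.712).

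**Figure D2:**
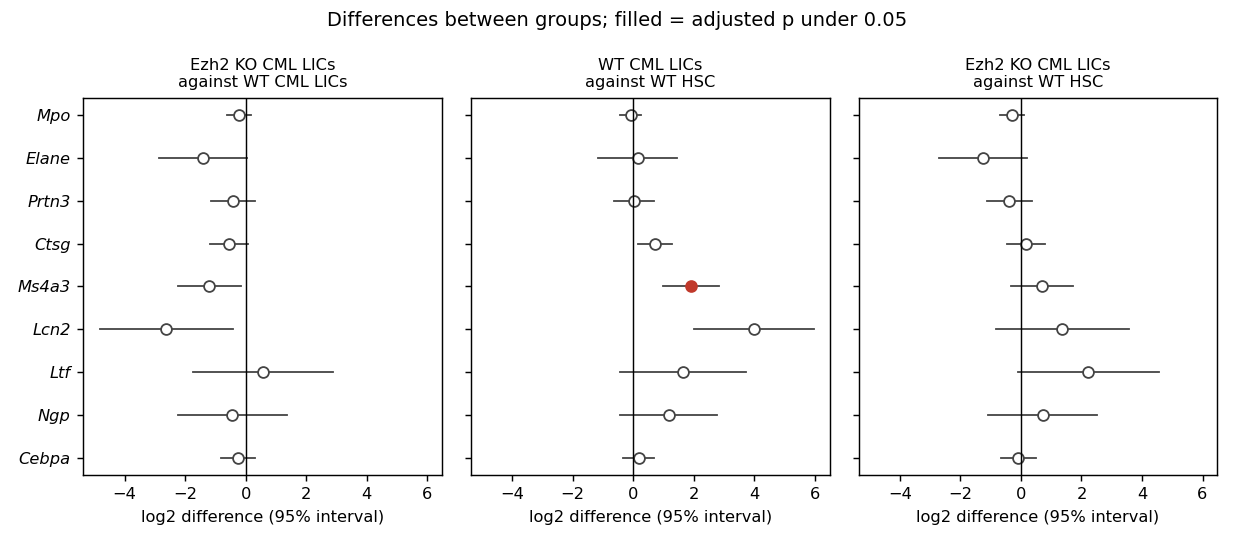
Log2 difference (horizontal axis) with its 95% interval for 9 genes in 3 comparisons, the group named first minus the group named second; the filled point marks the gene with an adjusted p under 0.05. Only Ms4a3 between WT CML LICs and LSK cells was called, and the intervals of Lcn2, Ltf and Ngp were wider than those of Mpo, Prtn3, Ctsg and Cebpa.

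What loss of Ezh2 changed within the leukaemic cells is asked by the comparison of Ezh2 KO with WT CML LICs. None of the 9 genes was called by limma, against 0.637% of all genes. At an unadjusted p under 0.05 there were 2, Ms4a3 and Lcn2, both lower in the knockout, where 11.1% of all genes passed and 4.97% were lower. The differences lay under 0 for 8 of 9 genes, against 56.7% of all genes, with a median of -0.44 beside -0.05 for all genes. This count leaned on replicate 2 of the knockout. Without it the difference was 0.13 for Prtn3, 0.03 for Cebpa, -0.04 for Mpo and -0.09 for Ctsg. Elane, Ms4a3 and Lcn2 stayed lower without it, at -0.33, -0.42 and -1.16. The arrays did not overlap for 2 genes, Elane and Ms4a3, both lower in the knockout, against 29.8% of all genes, with 16.6% lower. Summed intensity of 8 measured B cell markers was 7480 and 4620 on the knockout arrays, against 453 to 886 on WT CML LIC arrays and 837 to 1210 on LSK arrays, with Pax5 and Ms4a1 under background on each array. The part of B-lineage transcripts in the values of the granule genes was not tested.

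How WT CML LICs differ from normal LSK cells is asked by the next comparison, in which 1 of 9 genes was called, higher, against 3.42% of all genes and 1.27% called higher. The arrays did not overlap for 3, Ctsg, Ms4a3 and Lcn2, each higher in WT CML LICs, where 26.7% of all genes did not overlap and 13.5% were higher without overlap. The same 3 had an unadjusted p under 0.05, against 20.6% of all genes and 9.33% higher. The median difference of the 9 genes was 0.72 beside 0.02 for all genes, and 8 of 9 lay above 0 against 52.2%. Among these 8, Prtn3, Elane and Cebpa were only at 0.03, 0.15 and 0.17, and their intervals and those of Ltf and Ngp spanned 0. With arrays centred on their medians, the median over all genes became 0.15. Between Ezh2 KO CML LICs and LSK cells none of the 9 was called by limma, against 3.47% of all genes, and none had an unadjusted p under 0.05, against 19.2%. The median there was 0.17 beside -0.02 for all genes, and 2 genes did not overlap, Mpo lower and Ltf higher in the knockout, against 38.7% of all genes, with 18.2% higher and 20.5% lower. Each of the 3 comparisons shares a group with each of the others, so the values of a gene in them are not independent.

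The spread between arrays of a group differed among these genes, with a residual SD of 0.15 for Mpo, 0.28 for Cebpa and 0.31 for Ctsg and of 0.82 for Elane, 1.02 for Ngp, 1.25 for Lcn2 and 1.32 for Ltf. Replicate 2 of the Ezh2 KO CML LICs was lower than replicate 1 for 8 of 9 genes, where 51.2% of all genes were lower, and lower by more than 1 for 4 of 9, Elane, Prtn3, Ms4a3 and Lcn2, where 3.64% of all genes were. The differences were -2.94 for Lcn2, -2.15 for Elane, -1.57 for Ms4a3 and -1.10 for Prtn3. Ltf went the other way, by 1.52. Of 8 measured stem and multipotent progenitor markers 1 was lower on replicate 2, with a median difference of 0.39, and their summed intensity was 6460 on replicate 1 and 7950 on replicate 2. Of 9 markers of eosinophils, basophils and mast cells, 6 were lower by more than 1 on replicate 2. All 8 measured B cell markers were lower there, 1 of them by more than 1. Of 7 measured mature neutrophil markers 4 were lower there, 3 of them by more than 1, Camp, S100a8 and S100a9. Csf3r, Cxcr2 and Mmp9 were higher there, by 0.18, 0.07 and 0.28. The part of these cells in the split was not tested. The split was noticed in the values and is given as a description.

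Replicate 3 of the WT CML LICs differed from its group more widely. Its correlation over all genes was 0.971 and 0.973 with replicates 1 and 2, which correlated at 0.988 with each other. Of 7 measured erythroid markers all were lower there, 5 by more than 1, with a median of -3.00, and of 6 megakaryocyte markers all were lower, 2 by more than 1. Of 11 measured monocyte and macrophage markers only 3 were lower there, with a median of 0.81, and their summed intensity was 2150, against 1340 on replicate 1 and 685 on replicate 2. Against the mean of replicates 1 and 2 the array was lower by more than 1 for Lcn2, Ltf and Ngp (3 of 9, against 5.28% of all genes), at -1.90, -3.15 and -2.27. The azurophil enzymes and Cebpa lay above that mean, by 0.02 to 0.47, and Ms4a3 was at -0.12. Of 7 measured mature neutrophil markers, 4 were lower by more than 1 on that array and 3 were not lower. Of the 20 measured specific granule and later neutrophil genes 8 were lower, 5 by more than 1, and their median was 0.11, with Slpi higher by 1.51 and Padi4 by 1.46. The part of other cells in these values was not tested. S100a8 and S100a9, the calprotectin genes of the neutrophil cytosol, were at 6.96 and 7.90 on it, against 9.37 and 10.31 on replicate 1 and 9.42 and 10.50 on replicate 2. The antimicrobial cathelicidin gene Camp was at 4.71, against 6.90 and 7.16. Csf3r, the receptor for the granulocyte growth factor, was higher there, at 8.51 against 7.25 and 7.53. S100a8, S100a9, Csf3r, Slpi and Padi4 were singled out after their values were seen.

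**Figure D3:**
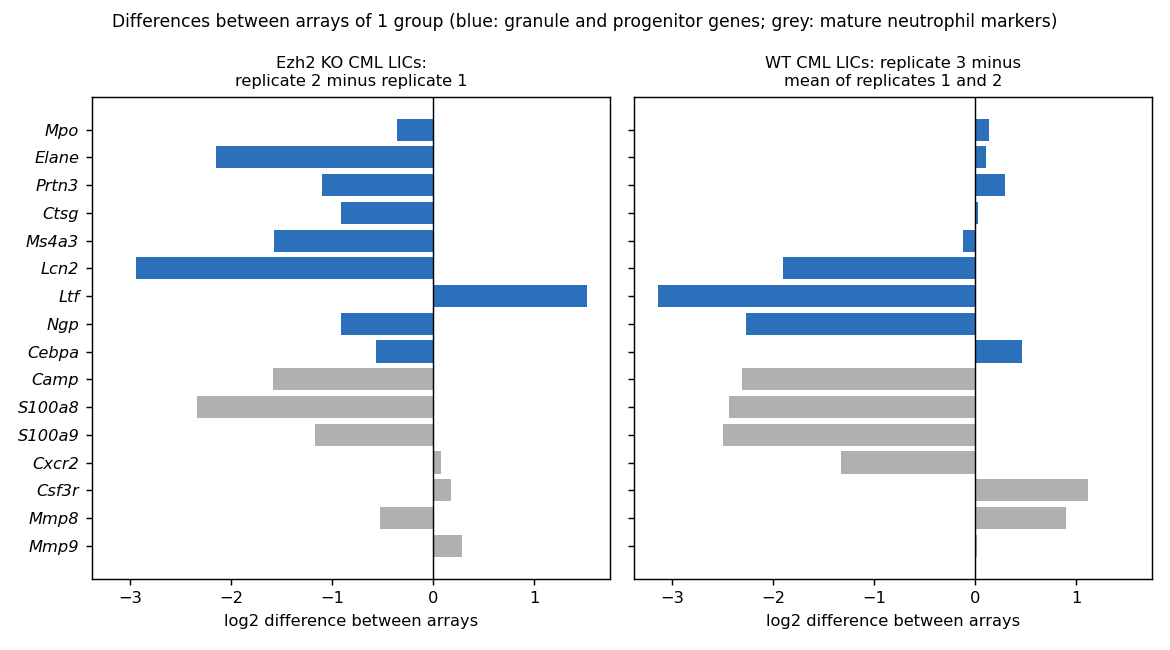
Log2 difference (horizontal axis) between arrays of the same group, for replicate 2 minus replicate 1 of the Ezh2 KO CML LICs and for replicate 3 minus the mean of replicates 1 and 2 of the WT CML LICs; blue bars are the 9 granule and progenitor genes and grey bars the 7 measured mature neutrophil markers. On the knockout array 8 of 9 genes were lower, with Camp, S100a8, S100a9 and Mmp8 also lower and Csf3r, Cxcr2 and Mmp9 higher. On the WT array Lcn2, Ltf, Ngp, Camp, S100a8, S100a9 and Cxcr2 were lower by more than 1, and Csf3r, Mmp8 and Mmp9 were not lower.

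Intensities of markers of several cell types were summed for each array, so the brightest marker of a list weighs most in its sum. Those of mature neutrophils reached 1840 and 802 in Ezh2 KO CML LICs, 813 to 2530 in WT CML LICs and 957 to 1660 in LSK cells, with 7 of 9 markers measured and Mmp8, which encodes neutrophil collagenase, under background on each array. Monocyte and macrophage markers, 11 of 12 measured, were at 1470 and 995, at 685 to 2150 and at 2430 to 3360 in the same order. Markers of eosinophils, basophils and mast cells, 9 of 10 measured, were at 4140 and 3330, at 3890 to 8510 and at 3430 to 3750, with Epx and Il5ra under background on each array. Gata2, the brightest of these except on WT CML LIC replicate 1, was at log2 values of 11.11 and 11.43, 10.76 to 11.44 and 11.45 to 11.68. Erythroid markers, 7 of 9 measured, were at 4450 and 4960, at 3490 to 13900 and at 8680 to 9590, with Hba-a1 under background on each array and the lowest sum on WT CML LIC replicate 3. Car2 was the brightest of these on each array, at log2 values of 11.84 and 12.15, 11.70 to 12.87 and 12.67 to 12.71. On knockout replicate 2, where the sum was higher, 2 of the 7 were lower than on replicate 1 by more than 1. These were Car1 and Klf1, at 5.50 and 5.80, against 7.90 and 7.37 on replicate 1. The other differences were -0.22 for Gata1, -0.16 for Epor, -0.02 for Hba-a1, 0.04 for Alas2 and 0.30 for Car2. Megakaryocyte markers, 6 of 7 measured, were at 501 and 441, at 326 to 648 and at 1370 to 2350. Markers of antibody-secreting cells, 6 of 7 measured, were at 1880 and 1430, at 1230 to 1510 and at 3440 to 4850. Stem and multipotent progenitor markers, 8 of 10 measured, were at 6460 and 7950, at 4950 to 7210 and at 11000 to 11400, with Mecom under background on each array. Of these, Kit (difference -1.19, adjusted p = 0.00886) and Hlf (difference -2.57, adjusted p = 0.0124) were called lower in WT CML LICs than in LSK cells, where 2.15% of all genes were, and no other was called there. The part of any of these cells in the values of the granule genes was not tested.

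Other genes of the neutrophil programme were read from 5 lists. In WT CML LICs against LSK cells 1.27% of all genes were called higher and 2.15% lower, and in Ezh2 KO CML LICs against LSK cells 1.61% and 1.86%. Of 7 measured genes that make up or serve the azurophil granule, 1 rose between WT CML LICs and LSK cells, with a median of 0.06 beside 0.02 for all genes. This was Cst7, which encodes cystatin F, an inhibitor of granule cathepsins. It was at 10.37 in WT CML LICs and 8.78 in LSK cells, a rise of 1.59 (SE 0.24, adjusted p = 0.0199), and it also rose by 1.52 in Ezh2 KO CML LICs against LSK cells (SE 0.27, adjusted p = 0.0316). Leaving out LSK replicate 1 or 2 ended both calls, leaving out WT CML LIC replicate 2 the first, and leaving out either knockout array the second. Ctsc, the protease that activates the granule serine proteases, was at 9.95 in WT CML LICs and 9.51 in LSK cells (adjusted p = 0.147).

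Of 20 measured specific granule, gelatinase granule and later neutrophil genes, 1 rose, 1 fell and 18 did not pass between WT CML LICs and LSK cells, against 1.27% of all genes called higher and 2.15% lower, with a median of 0.33. Adam8, a surface metalloproteinase gene, was at least 2.26-fold higher in WT CML LICs (adjusted p = 0.00658) and at least 2.79-fold higher in Ezh2 KO CML LICs (adjusted p = 0.00711) than in LSK cells, whose mean lay under background. Lyz2, the lysozyme gene of granulocytes and macrophages, fell by 1.48 in WT CML LICs (SE 0.18, adjusted p = 0.00954) and by 1.26 in Ezh2 KO CML LICs (SE 0.21, adjusted p = 0.0252) against LSK cells. Its call in the knockout was lost when any of the 5 arrays compared was left out. The list was not uniform in level. Itgam, the integrin chain of the lineage marker Mac-1, lay between 2.98 and 3.40 over the 8 arrays, under background, while Pglyrp1, which encodes a peptidoglycan recognition protein of granules, averaged 9.81 in WT CML LICs and 8.94 in LSK cells (adjusted p = 0.214). Itgam was chosen after its values were seen.

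Of 17 measured transcription factors of granulocyte and monocyte fate, none was called between WT CML LICs and LSK cells (median -0.15) or between Ezh2 KO and WT CML LICs (median 0.17). Cebpb, the C/EBP family member used in emergency granulopoiesis, rose by 1.50 in Ezh2 KO CML LICs against LSK cells (SE 0.19, adjusted p = 0.0123), with means of 7.12 in Ezh2 KO CML LICs, 6.34 in WT CML LICs and 5.63 in LSK cells, and the call was lost without knockout replicate 1 (adjusted p = 0.0732). With the mean of its probe sets the rise was 0.89. Between Ezh2 KO and WT CML LICs 14 of the 17 lay above 0, against 43.3% of all genes. The smallest p there belonged to Cebpb (difference 0.78, SE 0.19, adjusted p = 0.193) and Irf4 (difference 2.85, SE 0.95, adjusted p = 0.332), both higher in the knockout. Gfi1, a repressor needed for neutrophil production, went the other way, at 8.42 in Ezh2 KO CML LICs and 9.35 in WT CML LICs (difference -0.93, SE 0.37, adjusted p = 0.412). Between WT CML LICs and LSK cells 6 of the 17 lay above 0, and Id2 had the smallest p, at 8.53 and 7.02 (difference 1.52, SE 0.33, adjusted p = 0.0557). Irf8, which favours monocytes over granulocytes, was at 8.42 in WT CML LICs and 9.94 in LSK cells (difference -1.53, SE 0.49, adjusted p = 0.137).

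Of 11 measured receptors, 2 fell in WT CML LICs against LSK cells and none rose, against 2.15% and 1.27% of all genes, with a median of 0.38. Il6ra, the interleukin 6 receptor, fell by 1.68 (SE 0.15, adjusted p = 0.00276), or by 0.88 with the mean of its probe sets, and Csf2ra, the alpha chain of the receptor for granulocyte-macrophage growth factor, fell by 1.11 (SE 0.21, adjusted p = 0.0366). In Ezh2 KO CML LICs against LSK cells both fell too, Il6ra by 0.89 (SE 0.17, adjusted p = 0.0377) and Csf2ra by 1.93 (SE 0.24, adjusted p = 0.01), while Csf2rb, the shared beta chain of that receptor, rose by 1.76 (SE 0.33, adjusted p = 0.0354). Csf2rb was also higher in WT CML LICs than in LSK cells, by 1.33 (SE 0.29, adjusted p = 0.0573), just short of the threshold. Between Ezh2 KO and WT CML LICs it differed by 0.44 (SE 0.33, adjusted p = 0.66). With the mean of probe sets the knockout differences were -0.57 for Il6ra and -1.21 for Csf2ra, and neither was called. The calls of Csf2ra in WT CML LICs and of Il6ra, Csf2rb and Csf2ra in the knockout were also lost when certain single arrays were left out, with adjusted p up to 0.112, 0.161, 0.167 and 0.0591. Of 5 measured progenitor genes none was called in any of the 3 comparisons. Nkg7, a granule membrane protein gene, was at 12.05 in WT CML LICs and 11.29 in LSK cells (adjusted p = 0.0945). Between Ezh2 KO and WT CML LICs, no measured gene of these 5 lists was called by limma.

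**Figure D4:**
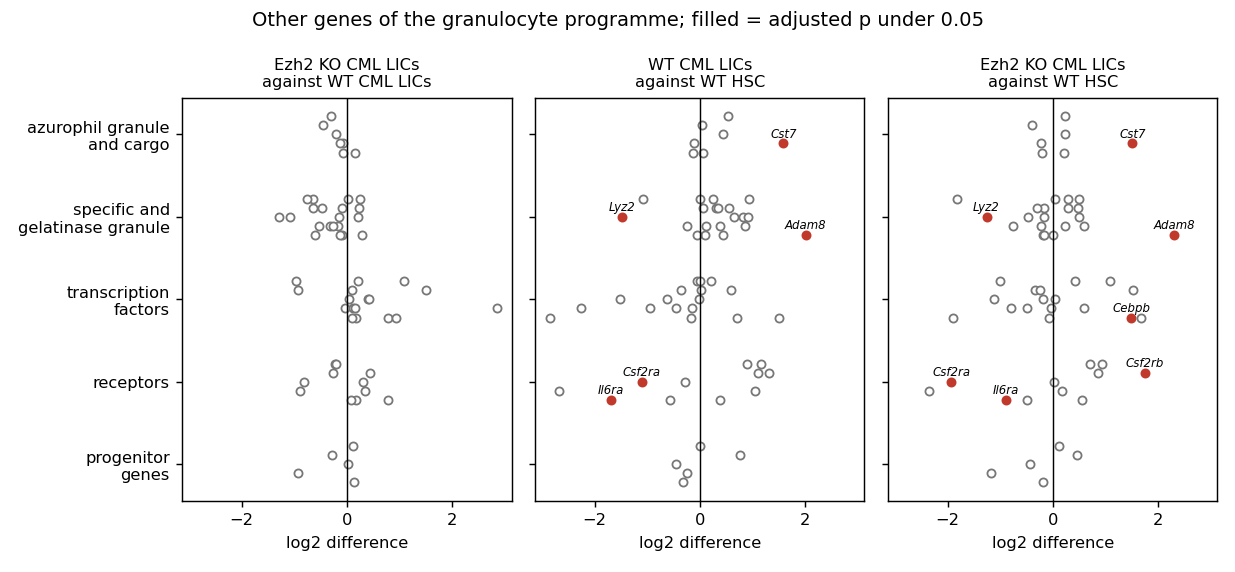
Log2 difference (horizontal axis) of the other measured genes of 5 lists of the granulocyte programme in 3 comparisons, the group named first minus the group named second; each point is a gene and filled, named points have an adjusted p under 0.05. Calls appear only in the 2 comparisons with LSK cells, with Cst7 and Adam8 above 0 and Lyz2, Il6ra and Csf2ra under 0 in both.

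The genes closest in pattern were found as the smallest root mean square difference over the 8 arrays, in log2 units after each gene was centred on its own mean, among 6190 genes brighter than the median. Lcn2 was closest to Cpa3, the carboxypeptidase gene of mast cells and basophils, at 0.93, followed by Ifi30 at 1.17 and Ccne1 at 1.21. Cpa3 rose by 2.63 in WT CML LICs against LSK cells (SE 0.52, adjusted p = 0.04). The call was lost when any LSK array, or WT CML LIC replicate 1 or 2, was left out (adjusted p up to 0.11). Cpa3 was picked by its likeness to Lcn2 on these same arrays, so its rise is not a separate result. Ms4a3 was closest to the sterol-related gene Tmem97 at 0.41, the iron transporter gene Slc11a2 at 0.45 and the isoprenoid synthesis gene Fdps at 0.46. Ctsg was closest to Anxa2 at 0.12, Nt5c at 0.15 and Ddx51 at 0.15. Prtn3 was closest to Msrb1 at 0.14, Ciao3 at 0.15 and Apip at 0.16, and Elane to Retsat at 0.38, Zfp239 at 0.41 and BC002059 at 0.44. Ltf was closest to Epdr1 at 0.48, St3gal5 at 0.68 and Cpd at 0.75, and Ngp to Cars at 0.47, Rad51ap1 at 0.50 and Nol11 at 0.52. Among the 9 genes themselves, Mpo and Cebpa were the closest pair at 0.19, and Mpo and Lcn2 the most distant at 2.01. These distances describe 8 arrays that share groups and are small for any 2 genes that vary little.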

How the data were processed

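The deposited values were linear intensity values for 22690 probe sets on 8 arrays, between 1.94 and 19343.1; RMA appears in the submitters' processing notes without a version, and per the labels' protocols cDNA was amplified with SPIA and labelled with biotin. Log2 was taken with no pseudocount. Control probe sets (64), those with several symbols (691) and those without a listed symbol (1555) were left out. The other 20380 were named through GEO's annotation (20351 updated by gene number to RefSeq, GRCm38.p6), and each gene's brightest probe set by mean over 8 arrays gave 12393 genes. Where a group mean was at or under background (4.01), a fold is a lower bound, each dim array set to at least that level.

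One limma 3.58.1 model (R 4.3.3, lmFit and eBayes) held all 3 groups (2-sided, 5 residual degrees of freedom), and the same code was tested on simulated data. Exact permutation tests cannot go below p = 0.1 here. The genes and lists were chosen with earlier results of these data known. Genes named were the 9 measured, called genes of the lists with up to 4 others of smallest p, and the 3 nearest in pattern of each whose values spanned more than 1. No batch is given, so batch and group cannot be told apart. Replicate numbers were not taken as pairs, since the labels name no pairing. Same-numbered arrays of different groups had deviations correlated between -0.05 and 0.14, and differently numbered ones between -0.14 and 0.10. These deviations were from means of only 2 or 3 arrays, so they cannot decide on pairing. Plots were drawn with matplotlib 3.10.9.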

Additional observations from a re-analysis of the deposited data

How the results depend on the processing

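Alternatives were another probe set rule, a filter on dim genes, 3 other normalizations, other variance settings, the compared groups alone, a floor at background, the replicate number as a block, and each array left out. Of 438 values of the 9 genes, 396 kept direction and side of the threshold, 22 changed sign, 11 passed newly and 9 lost their call; the cause was not tested. The count called between WT CML LICs and LSK cells (1) became 2 with the mean of all probe sets, above the 40th percentile, after median centring, quantile normalization, a trended robust prior, array weights, the groups compared alone or the floor, and 0 with all probe sets tested singly or cyclic loess, and 0 to 2 with an array left out. With the replicate block it stayed at 1, with Lcn2 (adjusted p = 0.0433) in place of Ms4a3 (0.0578). No gene of the 9 was called in the other comparisons under any alternative run.

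Calls over all genes moved as well. Between Ezh2 KO and WT CML LICs (79) they were 32 with the filter, 119 with array weights, 35 with the groups compared alone, 36 with the replicate block and 25 to 146 with an array left out. Between WT CML LICs and LSK cells (424) they were 917 with array weights, 252 with the block and 176 to 643, and between Ezh2 KO CML LICs and LSK cells (430) 663 with all probe sets, 147 with the block and 118 to 225. Median centring changed the share of higher calls in WT CML LICs against LSK cells to 58.3% from 37.0%, and in the knockout against LSK cells to 66.6% from 46.5%.

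Signs turned for small differences. In WT CML LICs against LSK cells Mpo was 0.052 after centring, and Prtn3 was -0.0033 after quantile normalization, -0.012 after cyclic loess and -0.092 with array weights. Cebpa was 0.056 in the knockout against LSK cells after centring, and Ltf -0.13 between the knockout and WT CML LICs with the block. With an array left out, Elane ran from -0.24 to 0.36 and Prtn3 from -0.065 to 0.17 in WT CML LICs against LSK cells. Between the knockout and WT CML LICs Prtn3 ran from -0.97 to 0.13, Ltf from -0.47 to 1.34, Ngp from -1.19 to 0.29 and Cebpa from -0.54 to 0.027. Between the knockout and LSK cells Prtn3 ran from -0.94 to 0.16, Ctsg from -0.29 to 0.63, Ms4a3 from -0.093 to 1.48, Lcn2 from -0.11, with its knockout value under background, to 2.83 and Cebpa from -0.37 to 0.20. Leaving out a knockout array leaves 1, which is assumed to vary like the other groups.

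Among other genes named, Adam8 in both comparisons with LSK cells, and Il6ra and Lyz2 in WT CML LICs, kept their call under each alternative run. Csf2ra lost it under 10 of 17 in WT CML LICs and 2 of 16 in the knockout, Il6ra under 10 of 16, Lyz2 under 6, Csf2rb under 6, Cst7 under 5 and Cebpb under 1 in the knockout. Cst7 lost it under 3 of 17 and Cpa3 under 5 in WT CML LICs. Without knockout replicate 1, adjusted p in the knockout against LSK cells was 0.153 for Cst7, 0.116 for Lyz2, 0.0732 for Cebpb, 0.167 for Csf2rb, 0.147 for Il6ra and 0.0591 for Csf2ra. Signals near background limit Lcn2 and Ltf.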
